A study of Mus musculus with 6 samples.

Results

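Integrin subunits and the proteins that sit on their inner face were followed in epithelium of the embryonic mouse esophagus with and without p63. Of the 23284 gene symbols counted, 39 were taken by name: 23 integrin alpha and beta subunits, and 16 genes of adhesion proteins inside the cell (kindlins, talins, vinculin, paxillin, focal adhesion kinase, integrin-linked kinase and its partners, zyxin and tensins). The subunits Itga6, Itgb4 and Itga8 were left out of the selection. Epithelium was taken at E12.5 from 3 p63KO samples, which carried Trp63-CreERT2, a knock-in at the Trp63 gene, on both copies, and from 3 littermate controls, titled WT, whose alleles are not given further. Tamoxifen is not mentioned in the sources used here, and neither is the number of embryos per sample, so the tests are against the sample-to-sample spread, which may be technical.

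Integrins are heterodimers of 1 alpha and 1 beta subunit that bind the extracellular matrix. Talins and kindlins bind the tails of the beta subunits and switch the receptors on, and integrin-linked kinase, PINCH and parvin form a scaffold behind them. Vinculin, paxillin, focal adhesion kinase, zyxin and tensins link the receptors to actin and to signalling. In stratified epithelia, basal cells hold the basement membrane mainly with integrins of laminin, while kindlin-1, the Fermt1 product, is the main kindlin of epithelial cells and is lost in the skin disease Kindler syndrome. Kindlin-2 (Fermt2) is widely expressed, and kindlin-3 (Fermt3) is known from blood cells.

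Total counts were between 13335328 and 20093838 per library. Trp63 stood at 602.9 ± 63.9 CPM in the controls and at 71.4 ± 8.03 CPM without p63 (SD, n = 3 each), and no library went against its label. CPM here is the count as a share of the library, scaled by the TMM method. Of 12 epithelial markers, Krt8, Krt18, Krt19, Cldn6 and Foxa2 rose and Cdh1 and Grhl2 fell, and their sum was 5174 to 5428 CPM in control and 5572 to 5651 CPM in p63KO. Markers of other cells moved with genotype too: of 12 tested mesenchyme markers 6 fell and 2 rose, and their sum was 461.2 to 546.3 CPM in control and 1265 to 1660 CPM in p63KO. Without Dcn, which alone rose from 159.0 to 1222 CPM and was set aside after its values were seen, it was 250.2 to 403.8 and 144.8 to 317.6 CPM. Of 7 tested muscle markers 4 fell (82.4 to 187.4 and 33.0 to 60.9 CPM). The enteric neuron and neural crest list summed to 30.3 to 59.4 and 210.0 to 265.4 CPM. Of its 9 tested genes 3 rose (Ret, Elavl4 and Tubb3) and 2 fell (Ednrb and Gfra1), and the median log2 fold change was -1.01. The erythroid list summed to 6.77 to 42.1 and 13.02 to 26.7 CPM (1 of 5 fell). Lists of leukocytes, platelets and endothelium summed to 21.9 CPM or less in every library. Of 5 tested leukocyte markers 1 rose (Coro1a, log2 fold change 1.44, SE 0.31), and of 7 tested endothelial markers 1 rose (Flt4). Neither of the 2 tested platelet markers changed.

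Of the 39 genes, 32 had enough counts to be tested. In the edgeR quasi-likelihood test with adjustment over 13849 genes, 15 of the 32 changed (46.9%), beside 29.6% of all tested genes. In p63KO 11 fell (34.4%), where 14.3% of all tested genes fell, and 4 rose, where 15.3% of all rose. Without control replicate 1, 2 or 3, or without p63KO replicate 3, 2 members rose. The median log2 fold change of the 32 was -0.07, beside -0.01 over all tested genes. The members that fell were Fermt1, Itga3, Itga5, Itga2b, Pxn, Tns1, Itga9, Tns3, Itgb5, Itgb7 and Tln1; those that rose were Itga11, Itgb3, Fermt2 and Vcl. Falls of at least 2-fold were seen for 4 members, Fermt1, Itga3, Itga2b and Itga5, and such a rise for 1, Itga11, against 4.94% and 6.7% of all tested genes. The 2 groups did not overlap for 12 members on the lower side and 5 on the higher side, beside 22.2% and 21.8% of all tested genes (44.1% in either direction). Itga11 passed the filter through its p63KO libraries, so its rise is favoured by the filter.

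**Figure D1:**
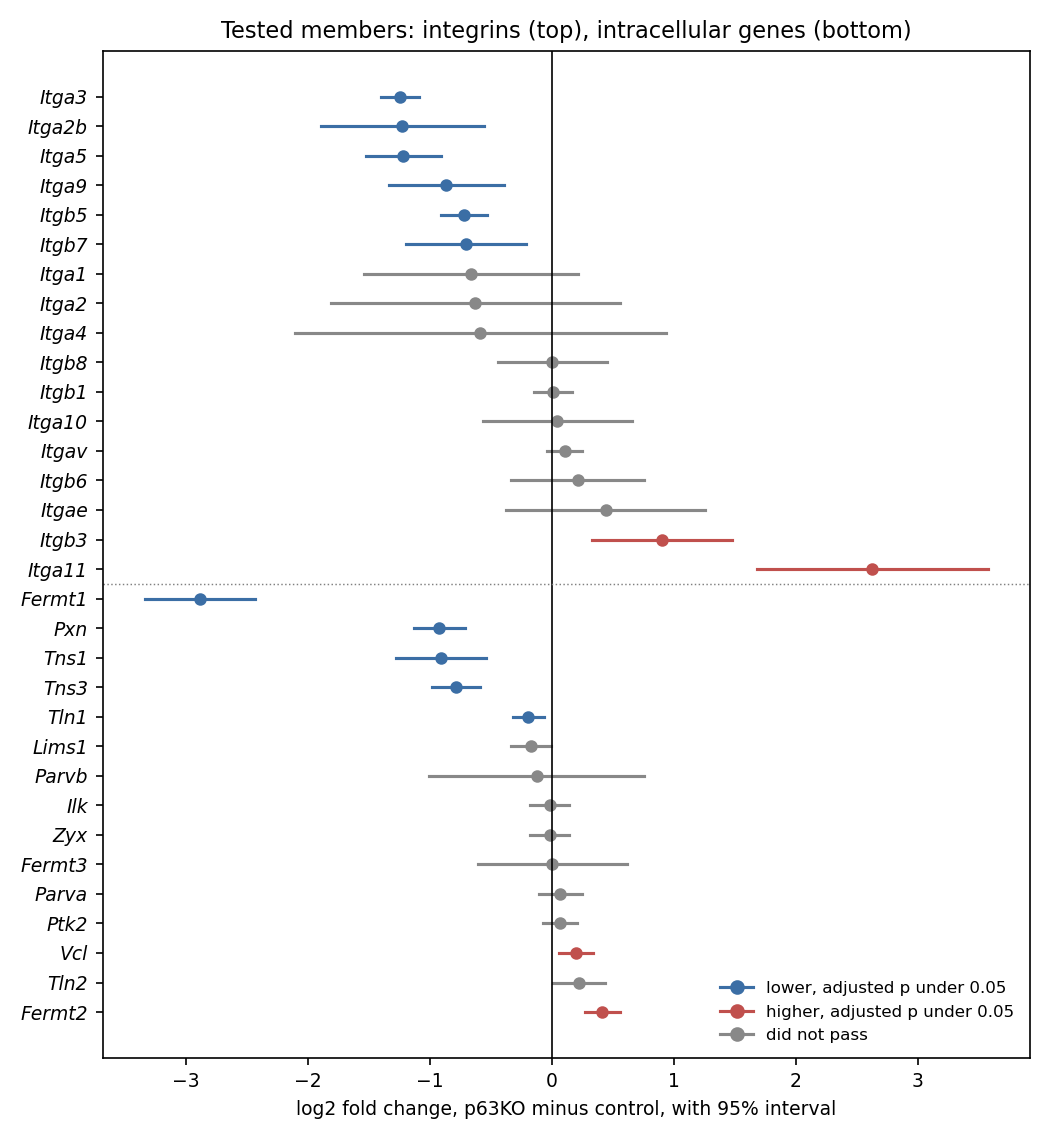
Log2 fold change (p63KO minus control, horizontal axis) of the 32 tested genes with 95% intervals from the edgeR fit, integrin subunits above the dotted line and intracellular genes below it. Blue marks genes that fell, red genes that rose and grey genes that did not pass; Fermt1 lies lowest at -2.88 and Itga11 highest at 2.63.

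Among the members, the largest change was in the kindlins. Fermt1 was 272.4, 279.0 and 250.0 CPM in control replicates 1, 2 and 3 and 49.0, 24.4 and 34.8 CPM in p63KO replicates 1, 2 and 3. The groups lay far apart, and the p63KO libraries varied more among themselves. It was 7.37-fold lower without p63 (-2.88 on the log2 scale, SE 0.20, edgeR adjusted p = 7.7e-06). Fermt2 was 56.1, 54.3 and 54.1 CPM in control and 69.3, 75.4 and 74.6 CPM in p63KO. Every p63KO library was above every control library, and the rise was 1.33-fold (log2 fold change 0.41, SE 0.06, edgeR adjusted p = 0.0011). Fermt3 was 6.18 to 7.52 CPM in control and 4.68 to 10.1 CPM in p63KO, and its groups overlapped (0.00, SE 0.27).

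Scaled by exon length, the kindlin counts were divided differently between genotypes. Fermt1 held 79.9% ± 0.74 of them in control and 29.0% ± 8.3 in p63KO (SD, n = 3 each), and Fermt2 18.0% ± 0.78 and 65.4% ± 6.6. In every control library Fermt1 was the leading kindlin, and in every p63KO library Fermt2 was. The difference in the Fermt1 share was -51.0 percentage points (exact permutation p = 0.10, two-sided, the smallest that 3 against 3 allows, and 0.17 adjusted over 15 shares). Between the libraries of p63KO the Fermt1 share ran from 20.8% in replicate 2 to 37.4% in replicate 1.

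**Figure D2:**
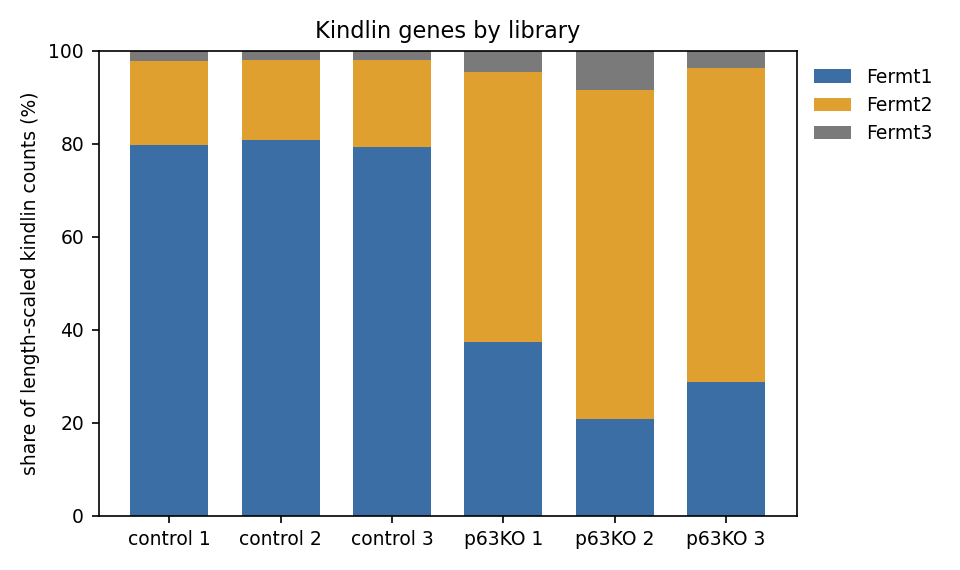
Share of the length-scaled kindlin counts (vertical axis, percent) held by Fermt1, Fermt2 and Fermt3 in each of the 6 libraries. Fermt1 takes 79.3 to 80.7% in the control libraries and 20.8 to 37.4% in the p63KO libraries.

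Promoters are shown for genes picked after their changes were seen: the kindlin pair that moved in opposite directions and Vcl, which rose beside Fermt2. The Vcl rise did not pass when any single library other than p63KO replicate 2 was left out. The promoter of Itga3, the strongest fall among the selected integrin subunits, is shown as well. Each runs from 250 bases before to 50 bases after the gene's start, 5′ to 3′ on the gene's strand, from RefSeq on GRCm38.p6. The counts were made on mm9, and no position was carried from one build to the other. Capitals mark the CArG box, the element of the actin-regulated factor SRF. The promoters are Fermt1 at chr2:132945987-132946286 (minus strand), Fermt2 at chr14:45530016-45530315 (minus strand), Vcl at chr14:20929148-20929447 (plus strand) and Itga3 at chr11:95076665-95076964 (minus strand), the upstream of 2 listed starts.
Fermt1: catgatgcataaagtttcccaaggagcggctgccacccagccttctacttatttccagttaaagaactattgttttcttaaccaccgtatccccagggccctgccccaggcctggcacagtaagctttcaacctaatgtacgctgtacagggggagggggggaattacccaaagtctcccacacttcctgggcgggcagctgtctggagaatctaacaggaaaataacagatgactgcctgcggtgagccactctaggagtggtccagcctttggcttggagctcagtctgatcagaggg
Fermt2: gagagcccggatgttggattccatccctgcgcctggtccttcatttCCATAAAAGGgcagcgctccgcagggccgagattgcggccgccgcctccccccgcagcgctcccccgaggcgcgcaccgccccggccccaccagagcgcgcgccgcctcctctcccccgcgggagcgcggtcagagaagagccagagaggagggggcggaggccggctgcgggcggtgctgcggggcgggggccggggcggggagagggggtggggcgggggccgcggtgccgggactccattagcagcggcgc
Vcl: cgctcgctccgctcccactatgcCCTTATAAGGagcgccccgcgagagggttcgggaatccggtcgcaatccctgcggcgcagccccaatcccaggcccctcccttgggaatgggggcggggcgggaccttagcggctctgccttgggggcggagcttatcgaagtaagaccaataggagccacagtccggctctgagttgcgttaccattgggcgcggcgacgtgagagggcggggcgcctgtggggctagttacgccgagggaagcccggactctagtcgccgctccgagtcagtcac
Itga3: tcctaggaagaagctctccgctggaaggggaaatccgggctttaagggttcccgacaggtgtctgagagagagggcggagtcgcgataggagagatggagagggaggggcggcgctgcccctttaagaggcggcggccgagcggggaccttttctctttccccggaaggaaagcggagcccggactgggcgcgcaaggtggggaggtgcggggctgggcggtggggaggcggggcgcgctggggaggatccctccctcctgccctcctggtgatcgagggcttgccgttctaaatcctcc

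The Fermt2 and Vcl promoters each held 1 CArG box, CCATAAAAGG ending 194 bases before the start of Fermt2 and CCTTATAAGG ending 217 bases before that of Vcl. The Fermt1 and Itga3 promoters held none, and neither did that of Itga11, the member with the largest rise. The table had 33 promoters for 28 of the 39 genes, and CArG boxes were found in 3 of them (9.09%; Fermt2, Vcl and 1 of 2 for Itgb6) and in 1.63% of all 32851 promoters of that length. Itgb6 did not pass the test (0.21, SE 0.24), and a link between the box and the changes was not tested. The other motifs searched, on both strands, were the p53-family half-site, AP-1 (TGANTCA), TEAD (GGAATG) and the GC box (GGGCGG). The half-site was found in 1 member promoter, that of Itga9 (3.03% against 8.36% of all), and the GC box in 18 (54.5% against 35.7%). AP-1 was in 4 (12.1% against 7.81%) and TEAD in 3 (9.09% against 14.7%), those of Itga10, Itgb1 and Vcl. The median GC content was 59.3% in the member promoters and 52.7% in all. The kindlin promoters differed in composition: Fermt1 had 53% GC and 5 CG pairs, Fermt2 76.7% GC and 37 CG pairs. Itga7, Itgad, Itgae, Itgal, Itgb2, Itgb3, Lims2, Parva, Ptk2, Pxn and Tln2 had no entry.

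Itgb1, the beta subunit shared by most matrix receptors, had the highest length-scaled level of all 39 genes in both groups, 105.8 CPM per kb of exon in control and 106.6 in p63KO. It was 416.6, 438.8 and 439.7 CPM in control and 403.0, 433.2 and 469.1 CPM in p63KO. The groups overlapped (log2 fold change 0.01, SE 0.07, 95% interval -0.15 to 0.17), and control replicate 1 and p63KO replicate 1 were the lowest of their groups.

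Of the alpha subunits that pair with Itgb1, Itga3, a laminin receptor of epithelia, was the most abundant by length (51.2 CPM per kb in control, 21.6 in p63KO). It was 298.1, 313.0 and 266.1 CPM in control and 122.9, 123.0 and 124.5 CPM in p63KO. The p63KO libraries were close to each other and 2.37-fold below control (-1.24, SE 0.07, edgeR adjusted p = 2.4e-06). For the other laminin-binding alpha subunit of epithelia, Itga6, which lay outside the selection, the log2 fold change was -0.85 (SE 0.06), and for its partner Itgb4 it was -3.09 (SE 0.15). Itga7, a laminin receptor of muscle, had 11 counts over the control libraries and 17 over p63KO and was not tested.

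The fibronectin receptor subunit Itga5 was 31.7, 28.2 and 32.2 CPM in control and 14.2, 14.8 and 10.6 CPM in p63KO, with no overlap. It was 2.32-fold lower (-1.22, SE 0.14, edgeR adjusted p = 0.00016). Itga9, a receptor of tenascin and other ligands, was 13.2, 13.3 and 16.9 CPM in control and 7.67, 10.2 and 5.94 CPM in p63KO. It fell 1.82-fold (-0.86, SE 0.21, edgeR adjusted p = 0.012), also without overlap. Both genes are also used by mesenchyme, and 6 of 12 mesenchyme markers fell beside them (Col1a1, Col3a1, Pdgfra, Pdgfrb, Osr1 and Foxf1, listed as Foxf1a, from -1.20 to -0.65), while Dcn (2.94) and Twist1 (1.33) rose. The part of mesenchyme in these falls was not tested. In bulk samples, fewer cells of a type and less RNA per cell cannot be told apart. Itga4, a close relative of Itga9, was 0.54, 0.82 and 2.41 CPM in control and 0.22 to 1.30 CPM in p63KO, with control replicate 3 above all other libraries (-0.58, SE 0.67).

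The 4 collagen receptor alphas were low, at most 0.84 CPM per kb in either group. Itga11, known from fibroblasts, was 0.32, 0.36 and 0.18 CPM in control and 2.30, 1.801 and 1.34 CPM in p63KO, so that all p63KO libraries were above control. It rose (2.63, SE 0.42, edgeR adjusted p = 0.0013), from 16 to 83 counts over 3 libraries each. The fibroblast matrix gene Dcn rose beside it (2.94), while Col1a1 and Col3a1 fell; the part of mesenchyme in the Itga11 value was not tested. Itga10, a cartilage collagen receptor with the highest length-scaled level of the 4, was 3.92 to 4.44 CPM in control and 3.27 to 6.20 CPM in p63KO (0.05, SE 0.27). Itga2, which epithelia also use, was 3.65 CPM in control replicate 3 and 0.87 to 1.48 CPM in the other 5 libraries (-0.63, SE 0.52). Itga1 was 0.82 to 1.396 CPM in control and 0.59 to 0.97 CPM in p63KO (-0.66, SE 0.39).

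Itgav pairs with several beta subunits in receptors of RGD-bearing ligands such as vitronectin, fibronectin and latent TGF-beta. It was 89.6, 86.4 and 85.0 CPM in control and 99.0, 91.4 and 90.4 CPM in p63KO. The p63KO libraries lay just above control, and the difference did not pass (0.11, SE 0.06, edgeR adjusted p = 0.26, 95% interval -0.04 to 0.25). Itgb1, given above, also pairs with it. Of the other 4 partners, Itgb3, Itgb5, Itgb6 and Itgb8, Itgb5 had the highest level by length, and its values were 276.5, 328.9 and 276.6 CPM in control and 182.8, 166.1 and 186.4 CPM in p63KO. Itgb5 fell 1.65-fold without overlap (-0.72, SE 0.08, edgeR adjusted p = 0.00018).

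Itgb3, Itgb6 and Itgb8 were far lower by length than Itgb5, at most 1.37 CPM per kb in either group. Itgb6, the epithelial subunit that activates TGF-beta, was 7.52, 6.18 and 11.5 CPM in control and 10.8, 7.96 and 10.4 CPM in p63KO (0.21, SE 0.24), and Itgb8, also an activator of TGF-beta, was 3.83 to 4.46 and 3.74 to 4.37 CPM (0.01, SE 0.20). Itgb3 was 1.24, 1.43 and 1.47 CPM in control and 2.48, 2.77 and 2.52 CPM in p63KO, and rose (0.91, SE 0.25, edgeR adjusted p = 0.025). That call was lost with DESeq2 (adjusted p = 0.095) and without any 1 of the 6 libraries (edgeR adjusted p = 0.051 to 0.088). Of the length-scaled counts of Itgb3, Itgb5, Itgb6 and Itgb8, Itgb5 held 97.9% ± 0.60 in control and 95.8% ± 0.19 in p63KO (SD, n = 3 each; exact permutation p = 0.10, the smallest possible).

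**Figure D3:**
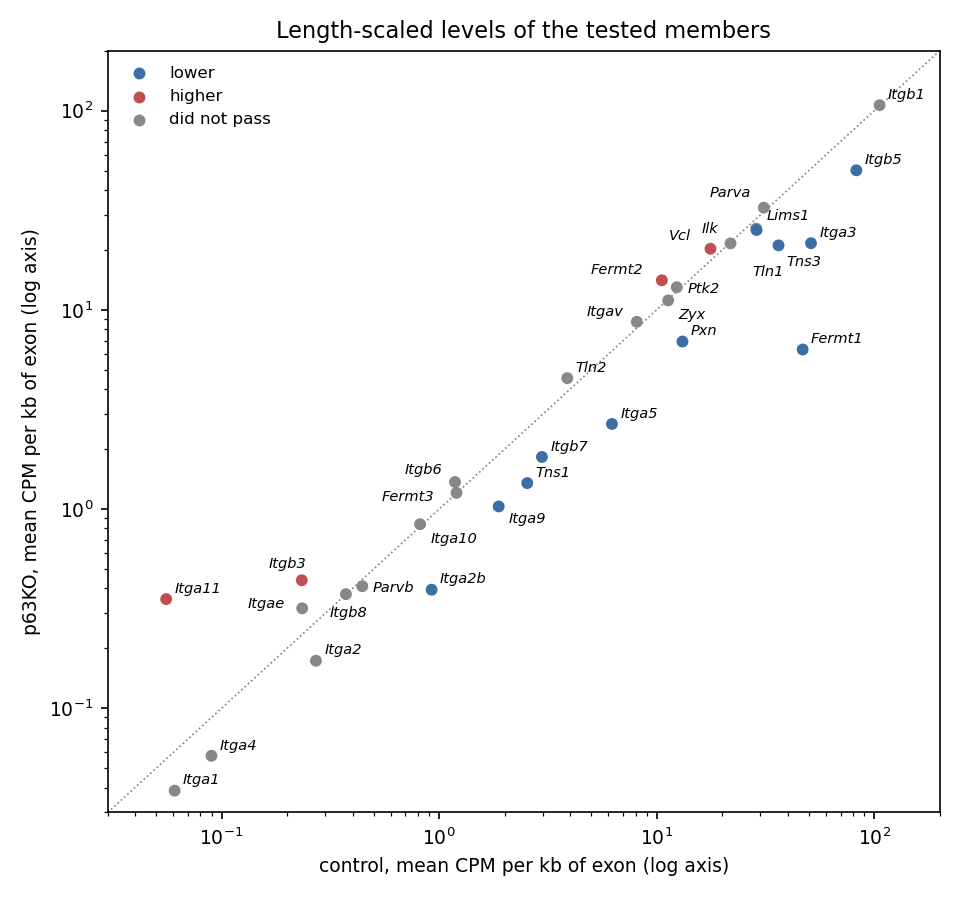
Mean CPM per kb of exon in control (horizontal, log axis) and p63KO (vertical, log axis) for the 32 tested genes, with the dotted line marking equal levels. Itgb1 lies on the line at 105.8 and 106.6, while Itgb5, Itga3, Tns3 and Fermt1 lie below it; the points of Lims1 and Tln1 coincide.

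Among integrins known from blood cells, Itga2b, the platelet alpha subunit, was 6.93, 3.47 and 4.71 CPM in control and 2.42, 1.87 and 2.15 CPM in p63KO, and fell (-1.22, SE 0.29, edgeR adjusted p = 0.012) with no overlap. The summed platelet markers were 1.45 to 2.30 CPM in control and 1.71 to 2.23 CPM in p63KO, with Treml1 and Gp6 at 0 in all libraries, and Gp9, Pf4 and Ppbp at 0.17 CPM or less in the mean of either group. Itgb7, a lymphocyte beta subunit, was 8.75, 7.61 and 8.30 CPM in control and 5.49, 3.60 and 6.09 CPM in p63KO. Its groups did not overlap, and it fell (-0.70, SE 0.22, edgeR adjusted p = 0.039), but the call was lost without control replicate 1, 2 or 3 (adjusted p = 0.10, 0.055 and 0.062), and likewise when p63KO replicate 1 or 2 was left out (0.072 and 0.11). The summed leukocyte markers were 14.6 to 20.9 and 17.7 to 21.9 CPM. Itgae, which pairs with Itgb7 and binds E-cadherin, was 0.92 to 1.18 CPM in control and 0.89 to 1.94 CPM in p63KO (0.44, SE 0.36). Itgad, Itgal, Itgam, Itgax and Itgb2 were not tested, with at most 8 counts in any library.

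**Figure D4:**
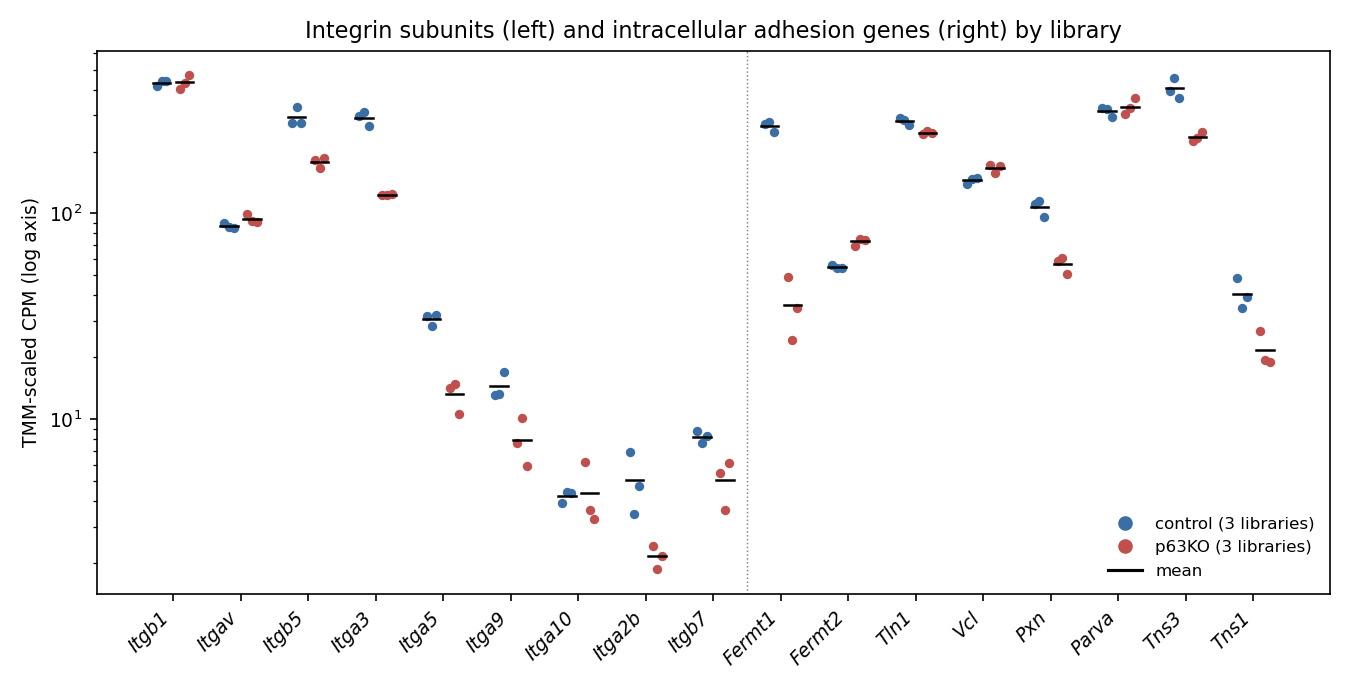
TMM-scaled CPM (log axis) of 17 genes in each of 3 control (blue) and 3 p63KO (red) libraries, with black bars at the group means. Integrin subunits stand left of the dotted line; Itgb1 overlaps between groups, Itga3 and Fermt1 do not, and Fermt1 falls from 250.0 to 279.0 CPM to 24.4 to 49.0 CPM.

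The talins moved little. Tln1, which couples the beta tails to actin, was 292.1, 284.9 and 268.8 CPM in control and 243.4, 251.5 and 245.5 CPM in p63KO, 1.14-fold lower with no overlap (-0.19, SE 0.06, edgeR adjusted p = 0.032). The call was lost with no filter (adjusted p = 0.051) and without control replicate 1 or 2 (0.10 and 0.082) or p63KO replicate 1, 2 or 3 (0.079, 0.097 and 0.096). Tln2 was 68.2 to 76.1 CPM in control and 72.1 to 91.1 CPM in p63KO (0.23, SE 0.09, edgeR adjusted p = 0.11). Per length, Tln1 held 88.1% ± 1.07 of the talin counts in control and 84.7% ± 1.39 in p63KO (SD, n = 3 each; exact permutation p = 0.10, the smallest possible).

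None of the tested genes of the integrin-linked kinase scaffold passed the test. Parva, the most abundant parvin, was 327.1, 323.6 and 295.5 CPM in control and 303.5, 327.0 and 363.1 CPM in p63KO, with the groups overlapping (0.07, SE 0.08, 95% interval -0.11 to 0.25). Ilk was 57.5 to 61.4 CPM in control and 55.2 to 62.1 CPM in p63KO (-0.02, SE 0.07, 95% interval -0.18 to 0.14). Exons of Taf10 and Rrp8 on the other strand cover 89.7% of its exon length in the GENCODE M21 annotation, and the strand setting of the counts is not given, so the Ilk value may hold reads of these genes. Lims1, which encodes PINCH-1, was 134.7 to 147.7 and 114.6 to 133.0 CPM, without overlap but not past the test (-0.17, SE 0.07, edgeR adjusted p = 0.12). Parvb stood at 1.96 and 1.81 CPM in the mean (-0.12, SE 0.39), and Lims2 had 28 and 13 counts in all and was not tested.

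Adaptors of the adhesion plaque fell in part. Pxn, the paxillin scaffold, was 111.7, 114.9 and 96.4 CPM in control and 58.7, 60.8 and 51.0 CPM in p63KO, 1.89-fold lower without overlap (-0.92, SE 0.09, edgeR adjusted p = 7.3e-05). Its partner Ptk2, the focal adhesion kinase, was 140.2 to 154.3 CPM in control and 148.4 to 158.8 CPM in p63KO (0.07, SE 0.06, 95% interval -0.07 to 0.21). Vcl, which reinforces the link from talin to actin, was 139.3, 146.7 and 148.1 CPM in control and 171.6, 157.3 and 169.3 CPM in p63KO. All p63KO libraries were above control, a rise of 1.15-fold (0.20, SE 0.06, edgeR adjusted p = 0.037). That call was lost without control replicate 1, 2 or 3 (adjusted p = 0.12, 0.074 and 0.057), and likewise when p63KO replicate 1 or 3 was left out (0.092 and 0.11). Exons of Ap3m1 cover 25.5% of its exon length on the other strand, and Ap3m1 had a log2 fold change of 0.10 (SE 0.08).

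Of the tensins, Tns1 and Tns3 fell, and zyxin did not pass. Outside the members, Tns2, listed as Tenc1 (-0.37, SE 0.14, edgeR adjusted p = 0.071), and Tns4 (-0.91, SE 0.32, edgeR adjusted p = 0.061) did not pass. Tns3, by length the higher of the 2 member tensins (36.3 CPM per kb in control, 21.1 in p63KO), was 396.1, 457.1 and 364.5 CPM in control and 225.9, 233.0 and 248.4 CPM in p63KO. It was 1.72-fold lower without overlap (-0.78, SE 0.09, edgeR adjusted p = 0.00014). Tns1 was 48.3, 34.6 and 39.2 CPM in control and 26.7, 19.3 and 18.9 CPM in p63KO, 1.88-fold lower without overlap (-0.91, SE 0.16, edgeR adjusted p = 0.0027). Smooth muscle also uses Tns1, and 4 of 7 tested muscle markers, Acta2 (-1.29), Myh11 (-1.36), Cnn1 (-1.46) and Actg2 (-1.38), fell beside it; their part in the Tns1 value was not tested. Zyx, of stretched adhesions, was 59.1 to 62.5 CPM in control and 57.3 to 64.7 CPM in p63KO (-0.02, SE 0.07, 95% interval -0.18 to 0.14).

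Other focal adhesion genes, a list of 60, were read beside the members. Of 58 tested, 14 fell (24.1%), 8 rose (13.8%) and 36 did not pass, with a median log2 fold change of -0.11. Beside them, 14.3% of all tested genes fell and 15.3% rose. The fallen genes with the lowest p were Cav1, of caveolae (-2.68, SE 0.18), Ajuba, a LIM adaptor listed as Jub (-1.29, SE 0.09), and the tetraspanin Cd81 (-0.61, SE 0.06). Also lower were Src, the kinase that acts with focal adhesion kinase (-0.60, SE 0.08), Dock1 (-0.50, SE 0.07) and Cd151, the tetraspanin bound to laminin receptors (-0.54, SE 0.07). Of the kinases related to Src, Fyn rose (0.39, SE 0.07) and Yes1 did not pass (-0.04, SE 0.09). The risen genes with the lowest p were Vasp, an actin elongation factor (0.53, SE 0.06), the tetraspanin Cd9 (0.80, SE 0.09) and the kinase Pak1 (0.37, SE 0.06). Flna, the filamin with the largest counts of the list, went from 718.7 to 647.5 CPM and did not pass (-0.15, SE 0.06, edgeR adjusted p = 0.098). Src, Fyn, Yes1, Dock1 and Cd151 were named after their values were seen.

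Of 29 tested integrin ligands, 13 fell (44.8%), 4 rose (13.8%) and 12 did not pass, with a median of -0.73. Of all tested genes 14.3% fell and 15.3% rose. Col1a1 and Col3a1, among the 13, and Col1a2 and Postn, which did not pass, are also on the mesenchyme list. The fallen genes with the lowest p were the collagen IV chains Col4a2 (-1.77, SE 0.12) and Col4a1 (-0.82, SE 0.06) and Mfge8, an RGD ligand of Itgav receptors (-0.87, SE 0.07). Of the listed laminin chains, Lama5, with the largest counts of the list (-0.49, SE 0.09), Lamb1 (-0.56, SE 0.07) and Lamc1 (-0.27, SE 0.08) fell. Lama1 did not pass (-1.16, SE 0.59). It was 48.9 CPM in control replicate 3 and 9.02 to 12.1 CPM in all other libraries. The laminin binder Nid1 (-0.39, SE 0.27) and the basement membrane ligand Npnt (-0.11, SE 0.08) did not pass either. Thbs1, a thrombospondin, rose from 14.2 ± 1.47 to 132.7 ± 31.3 CPM (3.22, SE 0.17). Fn1, the fibronectin ligand of Itga5, rose from 267.9 ± 83.2 to 649.3 ± 127.9 CPM (1.28, SE 0.21), while Itga5 fell. Tnc, a tenascin, fell (-0.98, SE 0.33, edgeR adjusted p = 0.0495), as did Itga9. Of the ligands whose latent forms Itgav receptors activate, Tgfb3 rose (1.37, SE 0.17) and Tgfb1 fell (-2.29, SE 0.30). Lama1, Lamb1, Lamc1, Nid1, Npnt, Tnc and Tgfb1 were named after their values were seen.

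Of 29 genes of actomyosin and stress fibres, 9 fell (31.0%), 6 rose (20.7%) and 14 did not pass, with a median of 0.08. The shares over all tested genes were 14.3% and 15.3%. Pdlim5 (-1.23, SE 0.10), Limk2 (-0.69, SE 0.07) and Cnn2 (-0.65, SE 0.09) fell with the lowest p. Also among the 9 were the muscle markers Acta2 and Cnn1, named here beside the muscle list. Myl9 (-1.10, SE 0.29), Mylk (-1.02, SE 0.31) and Tpm2 (-0.96, SE 0.26) fell too. Like Acta2 and Cnn1, these were highest in control replicate 1, and the part of muscle in the falls was not tested. The last of the 9 was Myh9 (-0.33, SE 0.07). Myl9, Mylk, Tpm2 and Myh9 were named after their values were seen. The risen genes with the lowest p were Actg1 (0.69, SE 0.08), a cytoplasmic actin whose near-identical copies make its counts uncertain, Tagln2 (1.23, SE 0.15) and Pdlim7 (0.88, SE 0.13). Actb, with the largest counts, was 1371 ± 15.1 and 1518 ± 92.4 CPM and did not pass (0.15, SE 0.06, edgeR adjusted p = 0.11).

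**Figure D5:**
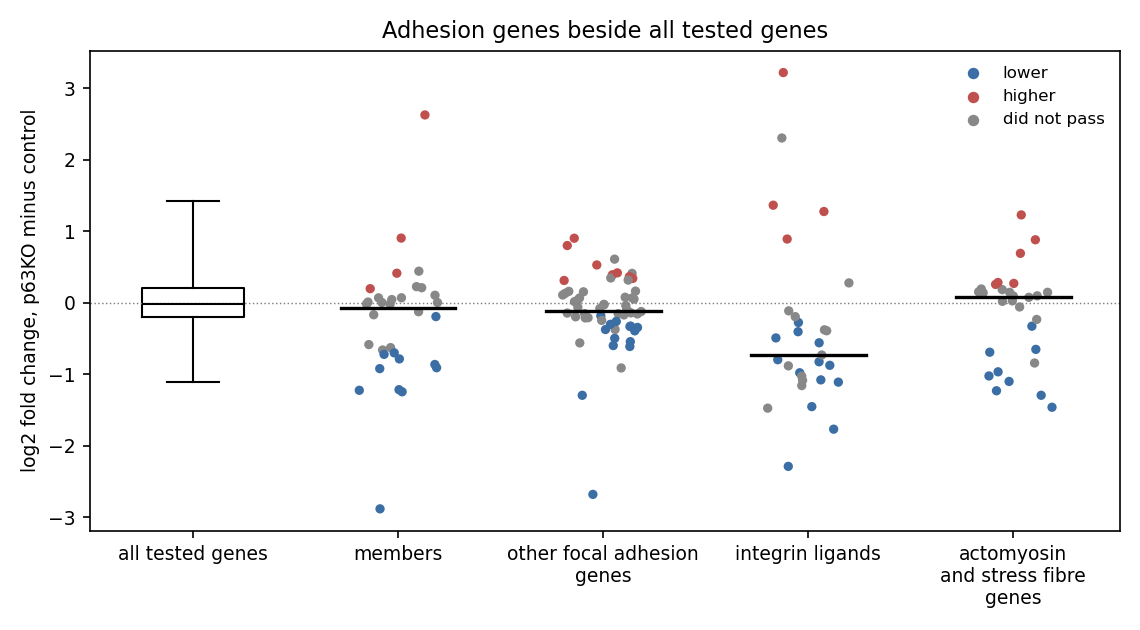
Log2 fold change (p63KO minus control, vertical axis) of the tested genes of 4 groups, 1 point a gene, coloured by the test, with black bars at the medians (-0.07, -0.11, -0.73 and 0.08 from left to right). The box shows the quartiles and median of all 13849 tested genes, with whiskers from the 5th to the 95th percentile.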

How the data were processed

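RNA of 3 control and 3 p63KO esophageal epithelium samples was sequenced. PicoPure RNA went into TruSeq libraries read for 100 bases, per the labels' protocols. The authors deposited raw counts per gene symbol, with no normalization. The submitters' processing notes name TopHat2 2.1.0, mm9, bcl2fastq 1.8.4 and DESeq2. Counter, annotation and strand setting: not given in the sources used here.

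The test was run with edgeR 4.0.16 under R 4.3.3: filterByExpr (minimum count 10, minimum total 15) left 13849 of 18572 genes with a count, libraries were scaled by TMM, and group was the only term of the quasi-likelihood test. P-values were adjusted by Benjamini-Hochberg over all tested genes, at 0.05. The SE is the log2 fold change over the square root of F. CPM are relative to the TMM-scaled counts in tested genes. The depth of 13335328 to 20093838 counts makes 3 counts 0.153 to 0.223 CPM. Lengths are the union of exons in GENCODE M21, which need not match the annotation counted. Older symbols were matched through RefSeq synonyms (9 genes). Replicate libraries all differed beyond counting noise (chi-square per degree of freedom 7.87 to 16.1).

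The members and lists were chosen with earlier results of these data known. Genes to be given in every sample were those past the test with a mean of at least 10 CPM in either group, the most abundant by length of each of 12 classes, and Itgb1; Itga11, Itgb3, Itga4 and Itgb6 were added after their values were seen, and the others are given by range. In the lists, the 3 lowest p in each direction and the largest counts were named. On simulated counts for p63KO against control (13740 genes), the test recovered 64.2% of 67 genes changed 1.5-fold, 93.8% of 65 changed 2-fold and 98.5% of 65 changed 4-fold, and called 9 unchanged genes. The simulation gave every gene the same spread between libraries (12.7%) and changed far fewer genes than were called here. Its recovery may not hold for genes of larger spread. Alternatives were DESeq2 1.42.0, RLE and upper-quartile scaling, limma-voom 3.58.1, no filter, 1 CPM in 3 libraries, a threshold of 0.01, the replicate number as a block, and each library left out.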

Additional observations from a re-analysis of the deposited data

How the results depend on the processing

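Of 247 log2 fold changes of 19 genes (the 17 with values in the plot of levels by library, Itga11 and Itgb3) under the alternatives, 218 kept direction and side of the threshold, 23 lost the call (Itgb7, Tln1, Vcl and Itgb3) and 6 changed sign. The sign changes were all of genes that did not pass: Itga10 (-0.0019 with the replicate block, and -0.30 to 0.21 with 1 library left out, below 0 without control replicate 1 or p63KO replicate 1), Itgb1 (-0.046 to 0.064 with 1 library left out, below 0 without control replicate 1 or p63KO replicate 3) and Parva (-0.00088 to 0.13 with 1 library left out, below 0 without p63KO replicate 3), and the cause was not tested. At an adjusted p under 0.01, 2580 genes changed in all; 2 members rose and 7 fell, 9 other focal adhesion genes, 8 ligands and 5 actomyosin genes fell, which follows from the stricter threshold. With 1 library left out, 2 to 3 members rose, the lowest without control replicate 1, 2 or 3 or p63KO replicate 3.

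Deviations from the group means correlated at 0.17, 0.26 and 0.03 between same-numbered libraries, and at -0.23 to 0.06 between differently numbered ones. The labels do not say that a number pairs samples, so the main fit had no block, and whether they are paired was not tested. With the replicate block, 4778 genes changed instead of 4098, and 4 members rose and 11 fell, as without it. No scaling moved the median of all genes by more than 0.0243 (upper-quartile scaling, log2). Depth limits the 7 untested members, with at most 13 counts in any library.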
